A study of Mus musculus with 6 samples.

Results

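Integrins and laminins are the genes of cell adhesion to the basement membrane and the matrix, and they were read here in fibrotic mouse kidneys, with fibrosis induced through TGF-β1. The members are the genes whose array symbol is an integrin α or β chain or a laminin α, β or γ chain. They were taken by symbol and not by any measured value, though the families were chosen with earlier results of these data known. They number 36 of the 20416 genes measured, with 18 integrin α chains, 8 integrin β chains and 10 laminin chains, and rest on 1165 probe sets. Lamb1-1 is the array's older name of Lamb1.

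The 6 arrays fall into groups of 3 by their labels. B6-TGFbeta kidneys (arrays 1, 2 and 3), named for the C57BL/6 background, were set against CBAxB6-TGFbeta kidneys (arrays 4, 5 and 6), whose name joins CBA and B6. The labels further write WT for the former and KO for the latter without naming a deleted gene, so background and any genotype behind that word cannot be told apart. Every array carries TGFbeta and an induced fibrosis in its labels, and no kidney without TGFbeta was analysed. How TGF-β1 was expressed, and the age and sex of the mice, are not given in the sources used beyond the statement that littermate cohorts were matched for both. Nothing in the labels says which arrays came from separate animals, so the p-values measure the spread between these arrays, which may be in part technical. The question of the comparison, after the series title, is which genes go with the susceptibility of a background to fibrosis.

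An integrin is a pair of an α and a β chain that spans the cell membrane, binds matrix or another cell outside and links to actin through talin, kindlin and vinculin inside. A laminin is a trimer of an α, a β and a γ chain that polymerises into the sheet on which epithelia, endothelia and podocytes rest. In the kidney, α3β1 integrin holds podocytes to the laminin of the glomerular basement membrane, α8β1 marks mesangial cells, αvβ6 and αvβ8 can release TGF-β from its latent complex, and the β2 integrins are carried by leukocytes.

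Values are log2 intensities, with array medians from 7.27 to 7.34, and each gene is summarised over its probe sets by median polish. Levels of different genes are not compared, because probes differ in brightness. Proximal tubule markers, which mark the labelled tissue, averaged 11.20 to 11.40 on the log2 scale in B6-TGFbeta and 9.67 to 10.16 in CBAxB6-TGFbeta, and 7 of 8 were lower there, among them Miox (-2.57) and Slc34a1 (-1.88). Of the loop and distal tubule markers 4 of 6 were lower, with summed levels of 13.68 to 13.88 against 13.04 to 13.26, and of the collecting duct markers 3 of 7, with 11.80 to 11.85 against 11.26 to 11.34. The part of this tubular difference in the values of the integrins and laminins was not tested. Array 2 of B6-TGFbeta stood apart through genes of tissues next to the kidney. Its brown and white fat markers averaged 8.61, against 6.07 to 6.94 on the other arrays, and its adrenal markers 8.38, against 5.63 to 5.72 on arrays 3 to 6. Array 1 of B6-TGFbeta carried a smaller adrenal signal, with a list mean of 6.47 and the steroid transport gene Star at 8.90, against 5.86 to 6.46 on arrays 3 to 6. The liver gene Alb stood at 9.45 on array 2 and 10.94 on CBAxB6-TGFbeta array 6, against 6.00 to 6.29 on the other 4. The results below are therefore also given without array 2, and with array 3 as the only B6-TGFbeta array. Tgfb1 itself was at 7.51, 7.50 and 7.51 in B6-TGFbeta and 8.27, 7.91 and 7.77 in CBAxB6-TGFbeta, and its difference of 0.48 (SE 0.13) did not pass in limma with Benjamini-Hochberg adjustment (adjusted p = 0.0609).

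The leukocyte chains αM, αX and β2 (3 of 7 leukocyte chains), the collagen-binding α2 and tenascin-binding α9 chains and the β3 chain were higher in CBAxB6-TGFbeta kidneys, 1 mesangial integrin was lower, and no laminin chain passed. At an adjusted p under 0.05, 6 of 36 members rose (Itgam, Itga2, Itgax, Itga9, Itgb3 and Itgb2), 1 fell (Itga8) and 29 did not pass. That is 19.4% of the members, beside 7.65% of all genes. By direction, 6 of 36 members were higher, beside 3.08% of all genes, and 1 of 36 was lower, beside 4.57%. Without arrays 1, 3 or 5 the number that passed was 3, 4 and 4 (2.42%, 3.48% and 4.24% of all genes), and without arrays 2, 4 or 6 it was 5, 6 and 6 (4.8%, 6.54% and 7.59%). The differences of the members had a median of 0.091 on the log2 scale, and those of all genes 0.018. The groups did not overlap in 12 members that were higher and 4 that were lower in CBAxB6-TGFbeta, 44.4% of the members beside 26.8% of all genes, of which 13.5% were higher and 13.4% lower. The SD was larger in CBAxB6-TGFbeta than in B6-TGFbeta for 27 of 36 members, and for 60.2% of all genes, with median SDs of 0.144 and 0.098 among the members.

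**Figure D1:**
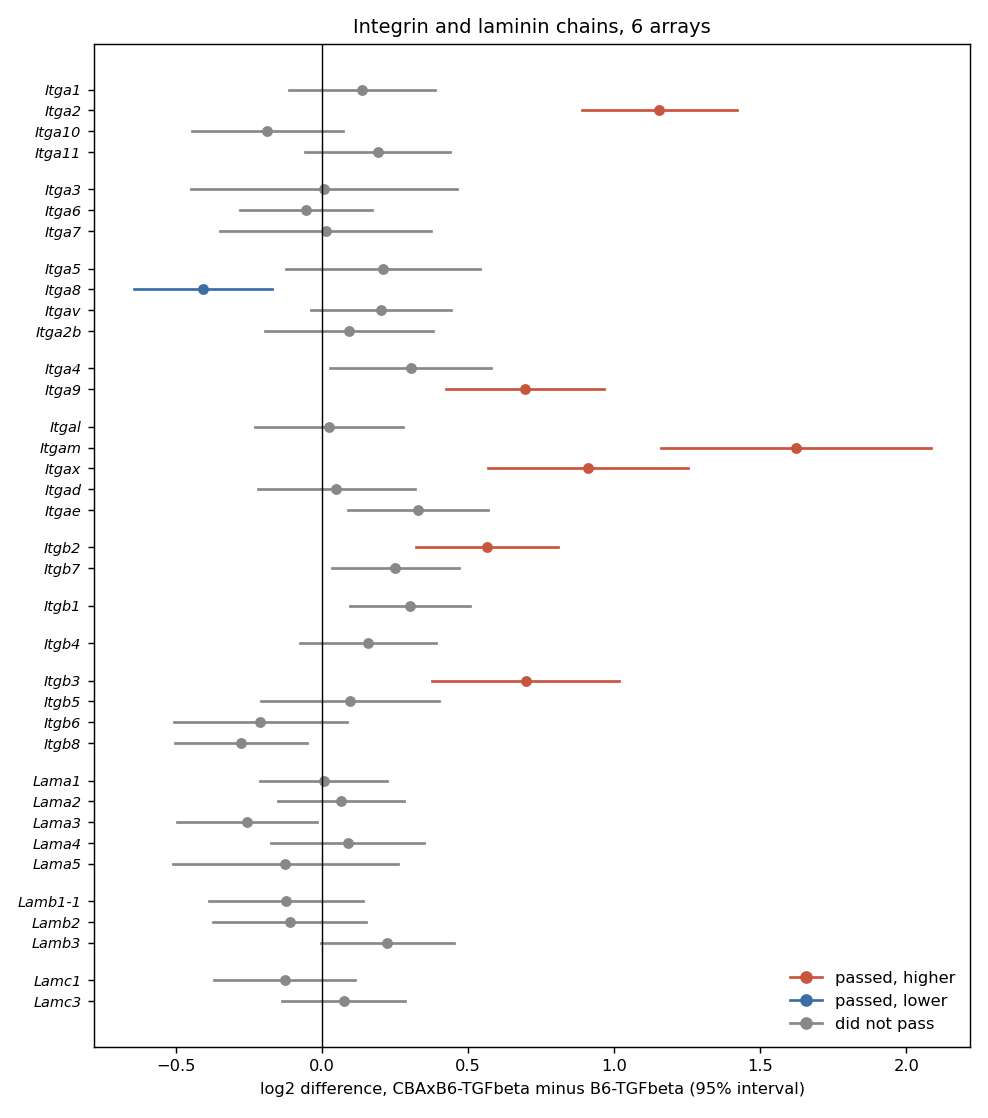
Log2 difference between CBAxB6-TGFbeta and B6-TGFbeta kidneys for each of the 36 chains, with its 95% interval from limma (3 arrays per group), grouped by role. The 6 red chains passed as higher, Itga8 in blue passed as lower, and the intervals of all 10 laminins lie between -0.51 and 0.45.

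The largest rise was in Itgam, the αM chain (CD11b) that with β2 forms the complement and fibrinogen receptor Mac-1 of macrophages and neutrophils. Its log2 intensity was 5.79, 6.12 and 5.98 on the B6-TGFbeta arrays and 8.11, 7.36 and 7.28 on the CBAxB6-TGFbeta arrays. All 3 CBAxB6-TGFbeta arrays lay above all 3 of B6-TGFbeta, and array 4 was the highest. The means were 5.96 ± 0.17 and 7.58 ± 0.46 (SD, n = 3 each) and differed by 1.62 on the log2 scale (SE 0.20, 95% interval 1.16 to 2.08) or 3.08-fold, with an adjusted p of 0.00235 in limma. Itgax, the αX chain (CD11c) of dendritic cells and macrophages, stood at 5.59, 5.61 and 5.77 in B6-TGFbeta and at 6.92, 6.42 and 6.35 in CBAxB6-TGFbeta. The groups were again apart with array 4 highest. The means of Itgax, 5.65 ± 0.10 and 6.57 ± 0.31 (SD, n = 3 each), differed by 0.91 (SE 0.15) or 1.88-fold, with an adjusted p of 0.00862 in limma. That call was lost without array 1 (adjusted p = 0.0510), at a difference of 0.88.

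Itgb2 encodes CD18, the β chain shared by αL, αM, αX and αD, and it rose as well. It stood at 6.18, 6.24 and 6.17 in B6-TGFbeta and at 6.74, 6.93 and 6.61 in CBAxB6-TGFbeta. The arrays of the groups did not overlap, and here array 5 was the highest. The means of 6.20 ± 0.037 and 6.76 ± 0.16 (SD, n = 3 each) differed by 0.56 (SE 0.11) or 1.48-fold, with an adjusted p of 0.0149 in limma. The call was lost without arrays 1, 3 or 5, with adjusted p of 0.0725, 0.0615 and 0.0526.

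The other leukocyte chains moved less and did not pass. Itgal, the αL chain of LFA-1 on lymphocytes and most other leukocytes, was at 6.25, 6.44 and 6.56 against 6.54, 6.34 and 6.44, overlapping groups with a log2 difference of 0.025 (SE 0.11). Itgad, the αD chain, differed by 0.050 (SE 0.12). Itgae, the αE chain that holds lymphocytes to E-cadherin on epithelium, was at 5.84, 5.85 and 6.10 against 6.22, 6.22 and 6.34. Those groups did not overlap, but the difference of 0.33 (SE 0.11) had an adjusted p of 0.101 in limma. Its partner Itgb7 differed by 0.25 (SE 0.10, adjusted p = 0.163 in limma), also without overlap.

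Itgam, Itgax and Itgad follow each other on chromosome 7 with no other protein-coding gene between them in the RefSeq annotation of GRCm38.p6. The first pair rose, and Itgad did not pass. The differences between these neighbours were not tested. The promoter sequences of Itgam and Itgax, the chains with the largest rises among those that pair with β2, are shown because these chains were higher together. Each is the RefSeq stretch of 250 bases before the annotated start on GRCm38.p6, 5′ to 3′ on the strand of the gene. Capitals mark GAGGAA or its reverse complement TTCCTC, the core bound by the myeloid factor PU.1, and TGANTCA, the AP-1 site.
Itgam, chr7:128062390-128062639, + strand: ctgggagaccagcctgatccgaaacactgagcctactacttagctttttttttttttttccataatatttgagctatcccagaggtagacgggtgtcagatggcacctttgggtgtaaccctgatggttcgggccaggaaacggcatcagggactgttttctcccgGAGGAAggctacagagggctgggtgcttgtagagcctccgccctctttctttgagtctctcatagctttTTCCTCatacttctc
Itgax, chr7:128129300-128129549, + strand: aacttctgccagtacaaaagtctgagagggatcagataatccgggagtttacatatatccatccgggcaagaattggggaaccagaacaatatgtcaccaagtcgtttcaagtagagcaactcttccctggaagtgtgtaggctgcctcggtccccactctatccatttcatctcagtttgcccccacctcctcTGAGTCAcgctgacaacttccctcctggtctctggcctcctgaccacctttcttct
The Itgam stretch held the PU.1 core at 84 bases before the start on the strand of the gene and at 15 bases before it on the other strand. The Itgax stretch held 1 AP-1 site, at 56 bases before the start, and no PU.1 core. The PU.1 core is short and common, present on either strand in 23.3% of 32851 mouse promoters of this length and in 13 of 26 promoters of 23 member genes. The AP-1 site was in 6.75% of all promoters and, among the members, in that of Itgax alone. No match was found in the stretches of Itga2 (chr13:114932101-114932350) or Itga9 (chr9:118711442-118711691) to these motifs, to the EGR site GCGNGGGCG, to the SMAD core GTCTAG or to TATAAA. The EGR site was in 4.7% of all promoters and 2 of 26 of the members, the SMAD core in 7.11% and 4, and TATAAA in 12.4% and 0. These matches describe the sequence and say nothing of binding.

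Leukocyte markers moved beside these chains. Of 14 macrophage markers, 7 were higher (Emr1, Cd68, Msr1, Mrc1, Cd14, Cx3cr1 and Lyz2) and none lower. Their summed intensity was 11.23 to 11.52 on the log2 scale in B6-TGFbeta and 12.06 to 12.66 in CBAxB6-TGFbeta. It was highest on array 4, as were Itgam and Itgax. This was not particular to macrophage markers. The neutrophil (8.85), platelet and megakaryocyte (9.49) and mesangial, fibroblast and smooth muscle (13.46) sums were also highest there. Those of T and NK cells (9.06) were highest on array 5, as was Itgb2, and those of dendritic cells (9.85) on array 6. Mpeg1, Fcgr1, Csf1r, C1qa, C1qb, C1qc and Ms4a7 did not pass. Of 9 neutrophil markers, Mmp8 and Retnlg were higher, and the sums were 8.40 to 8.55 against 8.65 to 8.85. Of 9 T and NK cell markers only Cd2 passed, as higher, and the sums of 8.90 to 9.01 and 8.92 to 9.06 overlapped. The 7 dendritic cell markers, of which 3 rose, include Itgax itself. The part of these cells in the rise of Itgam, Itgax and Itgb2 was not tested. In whole kidney, more cells of a type and more RNA per cell cannot be told apart.

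**Figure D2:**
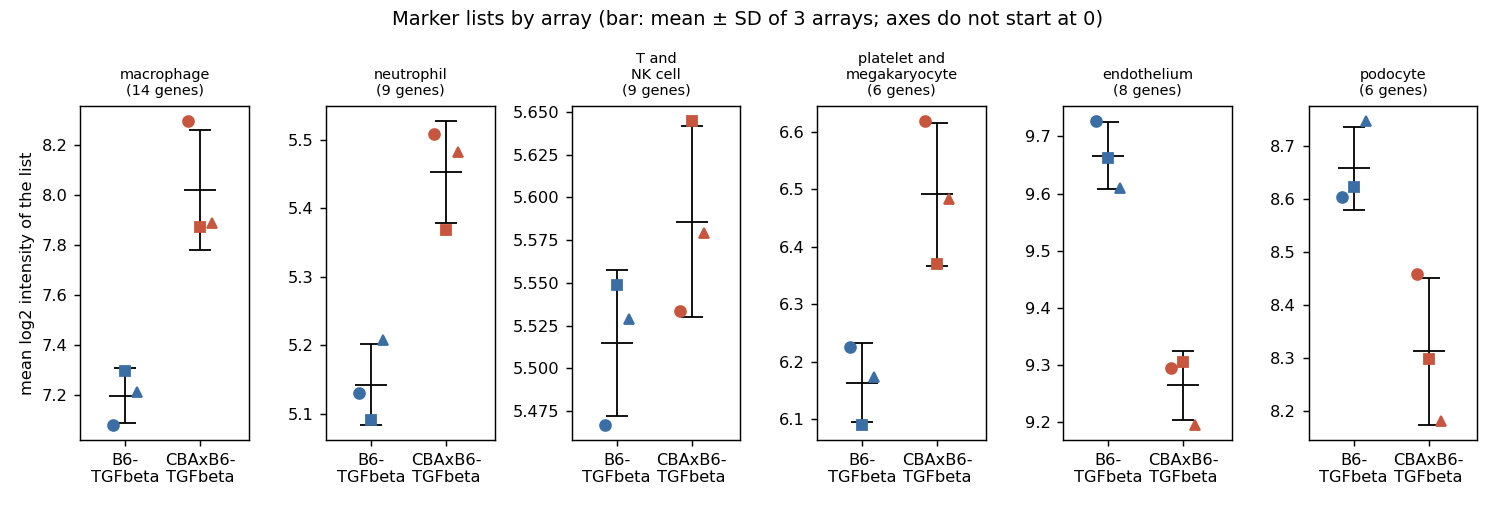
Mean log2 intensity of 6 marker lists on each array, with the group mean ± SD of 3 arrays (circle, square and triangle for arrays 1, 2 and 3 of B6-TGFbeta in blue and 4, 5 and 6 of CBAxB6-TGFbeta in red; each axis has its own range). Macrophage markers lie at 7.08 to 7.30 against 7.87 to 8.29, while those of T and NK cells overlap and those of endothelium and podocytes are lower in CBAxB6-TGFbeta.

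Itga2, the α2 chain of the collagen receptor α2β1 of epithelium, platelets and fibroblasts, had the smallest p of all members. It stood at 7.48, 7.56 and 7.19 in B6-TGFbeta and at 8.65, 8.50 and 8.53 in CBAxB6-TGFbeta. The groups were apart by more than the spread within either. The means were 7.41 ± 0.19 and 8.56 ± 0.081 (SD, n = 3 each) and differed by 1.16 on the log2 scale (SE 0.12, 95% interval 0.89 to 1.42) or 2.23-fold, with an adjusted p of 0.000891 in limma. The other collagen-binding α chains did not pass. Itga1, which lies next to Itga2 on chromosome 13, was at 10.93, 10.78 and 10.85 against 11.02, 10.82 and 11.14, overlapping groups with a difference of 0.14 (SE 0.11). Itga10 and Itga11 differed by -0.19 and 0.19 (SE 0.11 each), with overlapping groups.

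Itga9, the α9 chain that with β1 binds tenascin-C, osteopontin and VCAM-1, rose too. Its arrays were at 9.002, 8.92 and 8.72 in B6-TGFbeta and at 9.71, 9.61 and 9.40 in CBAxB6-TGFbeta, without overlap. The means of 8.88 ± 0.15 and 9.57 ± 0.16 (SD, n = 3 each) differed by 0.70 (SE 0.12) or 1.62-fold, with an adjusted p of 0.00960 in limma. Its closest relative Itga4, the VCAM-1 receptor chain of lymphocytes and monocytes, was at 8.30, 8.16 and 8.11 against 8.29, 8.49 and 8.70. Array 4 of CBAxB6-TGFbeta lay within the B6-TGFbeta range for Itga4, and the difference of 0.30 (SE 0.12) had an adjusted p of 0.188 in limma.

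Itgb3, the β3 chain that pairs with αv on endothelium, smooth muscle and macrophages and with αIIb on platelets, was the other β chain that rose. It stood at 6.72, 6.50 and 6.77 in B6-TGFbeta and at 7.57, 7.44 and 7.07 in CBAxB6-TGFbeta. The groups were apart, with array 6 nearest to B6-TGFbeta. The means of 6.66 ± 0.14 and 7.36 ± 0.26 (SD, n = 3 each) differed by 0.70 (SE 0.14) or 1.62-fold, with an adjusted p of 0.0199 in limma. The call was lost without arrays 1, 2, 3 or 5, with adjusted p from 0.0572 to 0.0741. Neither α partner passed: Itgav differed by 0.20 (SE 0.11) without overlap and Itga2b, the αIIb chain, by 0.093 (SE 0.13) with overlap. Of 6 platelet and megakaryocyte markers, 1 was higher, the chemokine Ppbp (1.40). The summed level of the list was 8.71 to 8.87 against 9.03 to 9.49 on the log2 scale. None of the other markers passed. Pf4 differed by 0.61, and Gp1bb, Gp5, Gp9 and Gp1ba by 0.18, 0.00012, -0.0031 and -0.22. The part of platelets in the result for Itgb3 was not tested.

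The β chains that pair with αv in epithelium did not rise with β3. Itgb6, the β6 chain of epithelia, was at 10.95, 10.50 and 10.52 in B6-TGFbeta and at 10.41, 10.49 and 10.44 in CBAxB6-TGFbeta. The CBAxB6-TGFbeta arrays lay below those of B6-TGFbeta, of which array 1 was the highest, and the difference of -0.21 (SE 0.13) did not pass (adjusted p = 0.412 in limma). Itgb8 was at 10.97, 10.90 and 10.87 against 10.53, 10.62 and 10.76, groups apart with a difference of -0.28 (SE 0.10) and an adjusted p of 0.144 in limma. Itgb5 differed by 0.10 (SE 0.14) and Itga5, the fibronectin receptor chain, by 0.21 (SE 0.15), both with overlap.

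Itga8, the α8 chain of mesangial and other contractile cells and the receptor for nephronectin, was the only member that passed as lower. It stood at 10.27, 10.06 and 10.09 in B6-TGFbeta and at 9.80, 9.62 and 9.78 in CBAxB6-TGFbeta. The groups did not overlap, and array 1 was the highest. The means of 10.14 ± 0.12 and 9.73 ± 0.10 (SD, n = 3 each) differed by -0.41 (SE 0.10, 95% interval -0.64 to -0.17) or 1.33-fold lower, with an adjusted p of 0.0477 in limma, close to the threshold. The call was lost without any 1 of the 6 arrays, with adjusted p from 0.0631 to 0.190. Of 10 mesangial, fibroblast and smooth muscle markers, none passed as lower and Cnn1 and Lum passed as higher. By sign, 7 differences were positive and 3 negative. Gata3 was lower with groups apart (-0.38, SE 0.12) but did not pass (adjusted p = 0.0953 in limma), and Pdgfrb differed by 0.014 (SE 0.19). Summed levels were 12.92 to 13.08 in B6-TGFbeta and 13.20 to 13.46 in CBAxB6-TGFbeta, and Dcn had the highest mean in the list. The part of mesangial cells in the result for Itga8 was not tested.

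**Figure D3:**
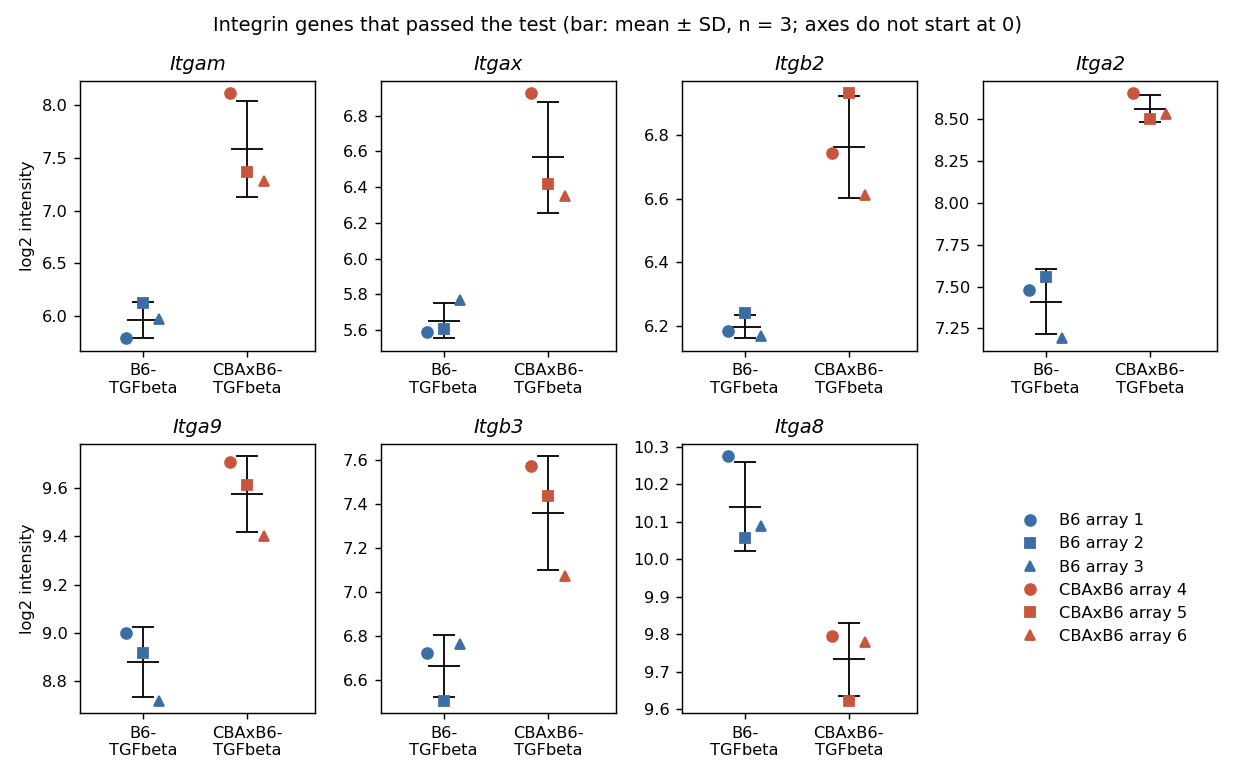
Log2 intensity of the 7 integrin genes that passed, on each of the 6 arrays, with the mean ± SD of 3 arrays per group (each axis has its own range). The groups do not overlap in any of these genes, with Itgam at 5.79 to 6.12 against 7.28 to 8.11 and Itga8 the 1 gene that is lower in CBAxB6-TGFbeta.

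Itgb1, the β1 chain shared by the collagen and laminin receptors and by α8 and α9, was at 11.15, 11.09 and 11.13 in B6-TGFbeta and at 11.49, 11.38 and 11.41 in CBAxB6-TGFbeta. The groups were clear of each other, but the difference of 0.30 (SE 0.091) did not pass (adjusted p = 0.0817 in limma). With a variance trend in limma it did, with an adjusted p of 0.0401. The α chains of the laminin receptors overlapped between the groups. Itga3, the podocyte and tubular α3 chain, was at 8.78, 8.93 and 8.87 against 9.31, 8.93 and 8.37, with a difference of 0.0078 (SE 0.20). The SD of its CBAxB6-TGFbeta arrays, 0.47, was the largest of all members, since array 4 lay above and array 6 below all of B6-TGFbeta. Itga6, the α6 chain of tubular epithelium and endothelium, was at 11.37, 11.22 and 11.23 against 11.11, 11.24 and 11.30, a difference of -0.052 (SE 0.10). Itga7, the muscle form, differed by 0.013 (SE 0.16) and Itgb4, the hemidesmosome chain that pairs with α6, by 0.16 (SE 0.10).

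None of the 10 laminin chains passed, and the 95% intervals of all of them lay between -0.51 and 0.45 on the log2 scale. Their median difference was -0.051, with 5 positive and 5 negative, and at an unadjusted p under 0.05 in limma 1 of them was lower, Lama3. The α5, β2 and γ1 chains make the main laminin of the adult glomerular basement membrane. Lama5 was at 8.03, 7.96 and 8.04 in B6-TGFbeta and at 8.28, 7.86 and 7.52 in CBAxB6-TGFbeta, so arrays 4 and 6 lay on either side of B6-TGFbeta. Its difference was -0.12 (SE 0.17). Lamb2 was at 8.32, 8.24 and 8.46 against 8.42, 8.19 and 8.08, with a difference of -0.11 (SE 0.12). Lamc1, the γ1 chain of nearly all laminins, was at 10.40, 10.43 and 10.31 against 10.35, 10.33 and 10.08, with a difference of -0.13 (SE 0.11). All 3 overlapped between the groups.

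Of 6 podocyte markers, 3 were lower. Their summed level was 11.70 to 11.80 on the log2 scale in B6-TGFbeta and 11.06 to 11.45 in CBAxB6-TGFbeta. It was lowest on array 6, as were Lama5, Lamb2, Lamc1 and Itga3. This was not particular to podocyte markers, since the summed levels of the adhesion plaque and basement membrane lists given below were also lowest on array 6 (14.69 and 13.98). Of 8 endothelial markers, 4 were lower, with sums of 13.11 to 13.20 against 12.74 to 12.86. The part of these cells in the values of the laminins was not tested. Among the remaining chains, Lama3, the α3 chain of epithelial laminin, was at 7.56, 7.73 and 7.54 against 7.41, 7.22 and 7.44, groups apart with a difference of -0.26 (SE 0.11) and an adjusted p of 0.201 in limma. Its trimer partner Lamb3 differed the other way, by 0.22 (SE 0.10, adjusted p = 0.240 in limma). Lama1, Lama2, Lama4 and Lamc3 differed by 0.0073, 0.066, 0.088 and 0.075, and Lamb1-1, the β1 chain, by -0.12 (SE 0.12).

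The probe sets of a gene can also be read one by one. Whether bases that differ between the backgrounds lie under any of the probes was not tested, for these values or for the gene values made from them. Of 1165 member probe sets, 10 passed, all higher (0.858%, beside 0.63% of all probe sets, 0.279% higher and 0.351% lower). They lay in Itgam (4), Itga2 (2), Itga9, Itgb2, Itgb3 and Itgae (1 each), and none in Itgax. All 32 probe sets of Itgam were positive, from 0.19 to 3.42, as were all 28 of Itga2, from 0.23 to 3.21. In Itga9 27 of 28 were positive, in Itgax 24 of 28, in Itgb2 15 of 17 and in Itgb3 12 of 16, while in Itga8 28 of 30 were negative. Chains that did not pass showed such agreement too. In Itgb8 13 of 14 and in Itgb6 20 of 22 were negative, and in Itgb1 17 of 19 were positive. The gene values were made from these same probe sets, which are not replicates. The brightest probe set alone went against the gene in Itgax (-0.072), Itgb3 (-0.24) and Itga8 (0.14), and none of these passed. It moved with the gene in Itgam (2.93), Itgb2 (1.60), Itga2 (1.19) and Itga9 (0.75). In the limma fit over all probe sets, only that of Itgam passed (adjusted p = 0.0329). Those of Itgb2, Itga2 and Itga9 did not (adjusted p 0.178, 0.0878 and 0.153).

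Some probe sets stood apart from their gene. In Itgae, 1 probe set was at 3.50, 2.91 and 2.94 in B6-TGFbeta and at 6.13, 6.17 and 5.89 in CBAxB6-TGFbeta, a difference of 2.95 (SE 0.22) with an adjusted p of 0.0145 in limma, while 23 of the 32 probe sets of the gene were positive. In Lamb1-1, 1 probe set was at 7.12, 6.18 and 6.57 against 4.92, 3.71 and 4.75, a difference of -2.17 (SE 0.38) that did not pass (adjusted p = 0.0671 in limma). Both were chosen after their values were seen.

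**Figure D4:**
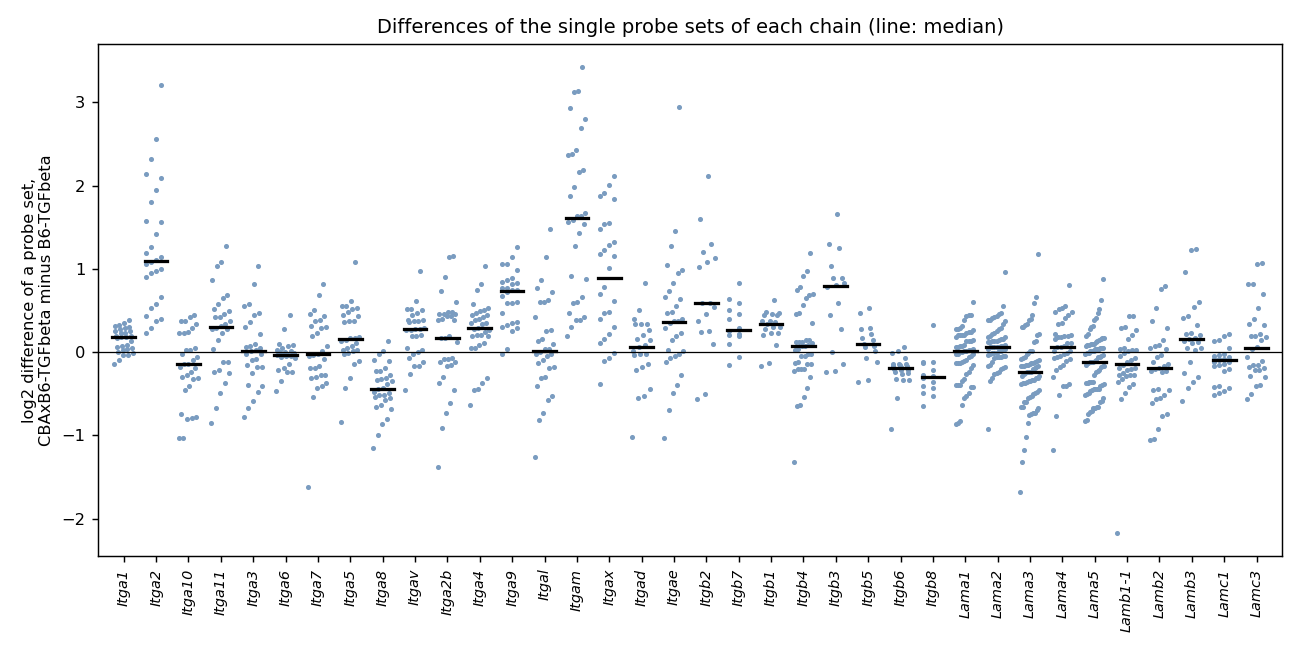
Log2 difference of each of the 1165 probe sets between CBAxB6-TGFbeta and B6-TGFbeta (points) with the median of each chain (line). All points of Itgam and Itga2 lie above 0, and most points of Itga8, Itgb6 and Itgb8 lie below it. Each laminin has points on both sides of 0, with most of those of Lamc1 and Lama3 below it and most of those of Lamb3 above.

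The partners of the integrins inside the cell passed in part. Of 37 genes of the adhesion plaque and of integrin activation, 31 did not pass (list median 0.082, beside 0.018 for all genes). In this list 5 were higher and 1 was lower (16.2%, beside 7.65% of all genes, 3.08% higher and 4.57% lower). The genes were listed with earlier results of these data known, so these shares are not a test of the list. Apbb1ip, the leukocyte adaptor RIAM that brings talin to integrins, had the smallest p, at 6.46, 6.84 and 6.68 against 7.76, 7.49 and 7.84 and with a difference of 1.04 (SE 0.13, adjusted p = 0.00252 in limma). The actin crosslinker Actn1 rose by 0.86 (SE 0.16), Vcl, which encodes vinculin, by 0.62 (SE 0.13) and the epithelial kindlin Fermt1 by 0.46 (SE 0.10), with groups apart in each. The fifth was Parvg, the leukocyte parvin, with a difference of 0.49 (SE 0.12), and the lower gene was Tln2, a talin, with -0.44 (SE 0.10), both named after their values were seen. Leaving out array 1, 2, 3, 4 or 5 left 1, 3, 2, 4 and 1 of these genes past the threshold. The shares of all genes that passed in those fits were 2.42%, 4.8%, 3.48%, 6.54% and 4.24%. Tln1, the main talin of leukocytes and platelets and also named so, differed by 0.0017 (SE 0.11).

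In the basement membrane around the laminins, 4 of 24 partner genes and other laminin receptors were lower and 1 was higher. That is 20.8%, beside 7.65% of all genes (4.57% lower and 3.08% higher), with a median of -0.096 beside 0.018. The other 19 did not pass. This list too was chosen with earlier results of these data known, and its shares are not a test of it. Col4a3, a chain of the type IV collagen of the mature glomerular basement membrane, was at 8.13, 8.12 and 8.35 against 7.68, 7.78 and 7.73, a difference of -0.47 (SE 0.10, adjusted p = 0.0258 in limma). Its partner Col4a4 fell by 0.40 (SE 0.10), the basement membrane gene Frem2 by 0.56 (SE 0.11) and Dst, a plakin that links β4 integrin to the cytoskeleton in its epithelial form, by 0.43 (SE 0.088). Frem1, the 1 gene that rose and named after its values were seen, had a difference of 0.44 (SE 0.11). No gene of this list passed without arrays 1, 3 or 5 (7, 10 and 8 at an unadjusted p under 0.05 in limma), and 1 and 2 passed without arrays 2 and 4. Of all genes 2.42%, 3.48% and 4.24% passed without arrays 1, 3 and 5, and 4.8% and 6.54% without arrays 2 and 4.

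Of 38 integrin ligands on cells and in the matrix, 22 did not pass, 13 were higher and 3 lower. That is 42.1%, beside 7.65% of all genes (3.08% higher and 4.57% lower), with a median of 0.42 beside 0.018. The ligand list was chosen with earlier results of these data known, so these shares are not a test of the list. Without array 1, where 2.42% of all genes passed, 8 of the ligands did. The smallest p were those of Fgg and Fga, chains of the fibrinogen that αMβ2, αXβ2 and αIIbβ3 bind (4.04, SE 0.15, and 2.57, SE 0.11), of Vcam1 (1.94, SE 0.11) and of C3 of complement (3.28, SE 0.25). Ligands of single members were also read out, and were chosen after their values were seen. They do not stand for the list, in which 28 differences were positive and 10 negative. Icam1, a ligand of αLβ2 and αMβ2, was at 7.04, 7.38 and 7.55 against 8.38, 8.36 and 7.72, a difference of 0.83 (SE 0.19, adjusted p = 0.0337 in limma). Tnc, the tenascin-C bound by α9β1, was at 9.15, 9.12 and 9.08 against 10.33, 10.37 and 9.97, a difference of 1.11 (SE 0.12, adjusted p = 0.00114 in limma). Npnt, the nephronectin bound by α8β1, was at 12.22, 12.04 and 12.08 against 11.87, 11.75 and 11.69, a difference of -0.34 (SE 0.10) that did not pass (adjusted p = 0.0748 in limma). For Icam1, Tnc and Npnt the groups were apart. The 3 ligands that passed as lower were Edil3 (-0.84, SE 0.12), L1cam (-0.55, SE 0.10) and Icam2 (-0.48, SE 0.099), also with groups apart. Icam1 and Icam2 thus moved in opposite directions. Whether ligands moved with the chains that bind them was not tested.

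Without array 2 of B6-TGFbeta, which held the fat signal and the larger adrenal signal, Itgam differed by 1.70, Itgax by 0.89, Itgb2 by 0.59, Itga2 by 1.23 and Itga9 by 0.71, and each passed in limma (adjusted p 0.00579, 0.0289, 0.0405, 0.00262 and 0.0283). Itgb3 at 0.62 and Itga8 at -0.45 did not pass there (adjusted p 0.0637 and 0.0844). With array 3 as the only B6-TGFbeta array, which leaves out both arrays with adrenal signal, Itga2 differed by 1.37 and passed in limma (adjusted p 0.0369), the lone array being assumed to vary like the others. Itgam at 1.61, Itga9 at 0.86, Itgax at 0.80, Itgb3 at 0.60, Itgb2 at 0.59 and Itga8 at -0.36 did not pass there (adjusted p from 0.136 to 0.480). Itga2, Itga9 and Itgam passed in each of the 6 fits that leave out 1 array and keep the gene values made from all 6. With the genes summarised anew over the other 5 arrays, a choice added after seeing the data, Itga2 passed in 4 of these fits, Itgam in 2 and Itga9 in none, at differences of 0.90 to 1.07, 1.20 to 1.59 and 0.57 to 0.76.

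**Figure D5:**
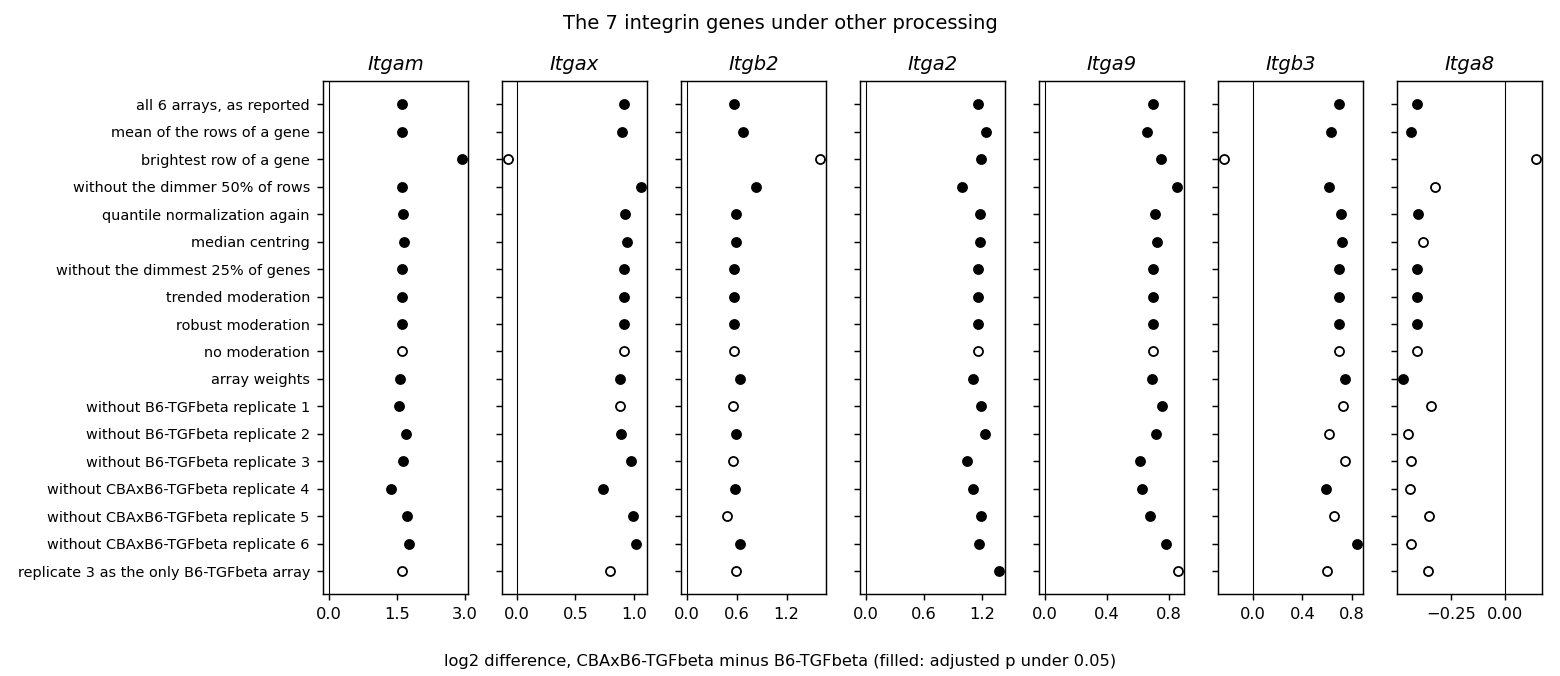
Log2 difference of the 7 integrin genes that passed, as reported and under 17 other ways of processing (rows), filled where the adjusted p in limma was under 0.05. Itga2 passed in 16 of the 17, Itga9 and Itgam in 15, and Itga8 in 6, and the brightest row of Itgax, Itgb3 and Itga8 lies on the other side of 0.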

How the data were processed

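Expression was measured in 6 kidney samples (3 per group) on an Affymetrix mouse array with biotin label. The authors deposited log2 intensity values per exon-level probe set. Per the submitters' processing notes the tools were RMA and Partek, with no version given, and the genome build of the probes is not given in the sources used here. Of 241576 rows, 212097 carried 1 gene symbol, 4475 several and 25004 none, and only the first were used. This left out 2 rows that share a member's symbol with another gene. Rows were combined into 20416 genes by median polish (2292 genes on 1 row). CBAxB6-TGFbeta minus B6-TGFbeta was fitted over all genes, and over all rows, with limma 3.58.1 in R 4.3.3, with moderated variances, 1 group term and Benjamini-Hochberg adjustment, two-sided, at a threshold of 0.05. The calculations were tested on simulated data. The number of arrays limits the precision. Members and lists were chosen with earlier results of these data known. The text names all members, every array's value for those that passed and for the glomerular, mesangial and epithelial chains, the 4 smallest p of each pathway list, and counts and summed levels of marker lists. Other genes, and array values of further members, were added after their values were seen. Alternatives changed the gene summary, normalization, filters, moderation and arrays used.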

Additional observations from a re-analysis of the deposited data

How the results depend on the processing

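No paired analysis was possible because the groups share no replicate numbers. Of 611 values of the 36 members under 17 alternatives, 543 kept direction and side of the threshold, 30 lost the threshold, 2 gained it and 36 changed sign. All but 3 of the genes with a changed sign (Itgax, Itgb3 and Itga8) had not passed.

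With the brightest row of each gene, 3 members passed, 3 higher and 0 lower (1 lower at an unadjusted p under 0.05), with 0 adhesion plaque genes (5 unadjusted), 2 basement membrane partners and 9 ligands. There Itga10 stood at 0.38, Itga11 at -0.22, Itga2b at -0.081, Itga7 at -0.43, Itga8 at 0.14, Itgad at -0.22, Itgax at -0.072, Itgb3 at -0.24, Lama3 at 0.13, Lama4 at -0.38, Lama5 at 0.17 and Lamb1-1 at 0.040. Without moderation of the variances, 0 members passed in the linear model (12 unadjusted, 10 higher and 2 lower), with 0, 1 and 4 genes of these lists and 0 member probe sets (171 unadjusted), where 63 of all genes passed. With replicate 3 alone standing for B6-TGFbeta, 1 member passed, Itga2, 1 higher and 0 lower, with 0, 0 and 5 list genes and 0 probe sets (141 unadjusted). There Itga2b stood at -0.10, Itga7 at -0.17, Itgad at -0.044, Itgal at -0.12 and Lama1 at -0.039.

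With each gene's dimmer rows removed, Itga8 did not pass, 0 members were lower (2 unadjusted), Itga10 stood at 0.025 and Itga2b at -0.0080, and 3 adhesion plaque genes and 3 basement membrane partners passed. With the mean of the rows, Itgae also passed, Itga7 stood at -0.0044 and Lama1 at -0.041. With median centring, 752 genes were higher and 805 lower, against 628 and 934 as reported, and 0 members were lower (2 unadjusted), Itga8 having an adjusted p of 0.0631. Member probe sets that passed numbered 40 with a variance trend, 6 with robust moderation and 21 without the dimmest rows.

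Leaving out 1 array at a time, 3 to 6 members passed, all higher, and 0 were lower (1 to 4 unadjusted). The counts were 1 to 6 for the adhesion plaque, 0 to 6 for the basement membrane, 8 to 22 for ligands and 0 to 3 for member probe sets. Genes were not summarised anew in those fits. In a choice made after seeing the data, they were summarised anew over 5 arrays, which left 0 to 2 members, or taken as the mean of rows, which left 5 to 7. Over all leave-one-out fits the lists then ranged from 0 to 6, 0 to 6 and 3 to 22. Median polish over 5 arrays gave smaller spreads, with a median ratio of SDs of 0.948 to 0.956 over all genes, and Itga9 passed in none of those 6 fits. The difference without 1 array ranged for Itga2b from -0.0017 to 0.19, Itga3 from -0.21 to 0.26, Itga6 from -0.094 to 0.0011, Itga7 from -0.15 to 0.14, Itgad from -0.016 to 0.15, Itgal from -0.059 to 0.096, Itgb5 from -0.031 to 0.19, Lama1 from -0.043 to 0.035 and Lama5 from -0.32 to 0.061. The cause was not tested beyond the fewer arrays or rows each alternative uses. Signal over background is unknown for these values, so no chain can be called absent.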
